A study of Mus musculus with 6 samples.

Results

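*Pou5f1* and *Sox2* encode OCT4 and SOX2, and the regions examined here are the intervals at these genes in 6 deposited lists of OCT4 and NANOG ChIP-Seq peaks. *Pou5f1* (ENSMUSG00000024406, chr17:35642982-35647721, plus strand, mm9) and *Sox2* (ENSMUSG00000074637, chr3:34548927-34551383, plus strand) were taken with every interval within 20 kb of the gene body, and *Sox2* with every interval up to 120 kb to take in its distal control region. By this rule, which uses position only, 26 of the 23767 intervals in the 6 lists were found. There were 5 within 20 kb of *Pou5f1*, 8 within 20 kb of *Sox2* and 13 farther out at *Sox2*, of which 10 lay downstream and 3 upstream. The lists hold no expression values, so the cell type could not be checked against markers.

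OCT4, a POU-domain factor, and SOX2, an HMG-box factor, are known to bind DNA side by side at composite Oct-Sox elements, often together with the homeodomain factor NANOG, and they act on their own genes as well as on other genes of the pluripotency network. *Pou5f1* is known for a distal upstream enhancer used in naive ESCs and a proximal one used in the primed epiblast. *Sox2* is known for regulatory regions on either side of its single exon, SRR1 upstream and SRR2 downstream, and for a control region far downstream that ESCs depend on for *Sox2* transcription.

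The cells were E-GFPd1 (labelled Esrrb-2a-GFPd-IBIH), a targeted line of E14Tg2a mouse ESCs in which a destabilised GFP follows the *Esrrb* coding sequence through a 2a peptide, so that GFP reports the orphan nuclear receptor gene *Esrrb*. All fractions carried the reporter and were cultured in LIF and serum, fixed with formaldehyde and then sorted into Esrrb-GFP high (the top 10%), Esrrb-GFP medium (the 15% of cells next above the negative gate) and, without reporter signal, Esrrb-GFP negative (also labelled Esrrb-low). OCT4 was precipitated with a goat polyclonal and NANOG with a rabbit polyclonal antibody, and each combination of factor and fraction gave 1 library from 3 pooled ChIPs. For high, medium and negative cells in turn, the lists hold 12449, 14464 and 10369 OCT4 regions and 9425, 4729 and 286 NANOG regions. Without replicate libraries the spread between replicates is unknown, and no test between fractions was made. Read depth is unknown, and only presence in a list can be compared. Peaks that overlapped between libraries had been joined by the authors, who counted a region as lost in fractions that held under 50% of the strongest depth-corrected signal seen there. A region missing from a list may therefore still carry signal below that limit. Intervals given with shares are exact 95% binomial (Clopper-Pearson) intervals, which cover counting over regions only.

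The sequences of 5 regions are shown first because they hold the composite Oct-Sox matches of these genes, or stand for OCT4 regions of *Sox2* kept in every fraction in which none was found. They are 200 bases around the region centre on the plus strand of mm9, a C57BL/6 reference, whereas E14Tg2a cells derive from another mouse strain. Capitals mark a match on either strand to the composite Oct-Sox element (14 bases, up to 2 mismatches). The octamer ATGCAAAT was searched without mismatch.
Pou5f1 -1960 (chr17:35640922-35641121): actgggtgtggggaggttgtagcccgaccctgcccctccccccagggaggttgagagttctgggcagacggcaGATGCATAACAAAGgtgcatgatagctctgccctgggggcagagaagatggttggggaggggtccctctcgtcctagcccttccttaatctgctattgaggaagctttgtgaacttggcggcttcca
Sox2 -25865 (chr3:34522962-34523161): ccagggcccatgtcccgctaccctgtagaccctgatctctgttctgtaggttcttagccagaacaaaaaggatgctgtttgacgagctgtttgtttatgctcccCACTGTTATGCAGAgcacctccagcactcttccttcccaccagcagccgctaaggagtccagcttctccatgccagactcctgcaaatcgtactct
Sox2 -3625 (chr3:34545202-34545401): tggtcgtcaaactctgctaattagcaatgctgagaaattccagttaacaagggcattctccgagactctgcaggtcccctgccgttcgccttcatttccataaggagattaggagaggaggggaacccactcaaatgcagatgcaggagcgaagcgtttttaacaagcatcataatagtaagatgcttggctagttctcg
Sox2 +4065 (chr3:34552892-34553091): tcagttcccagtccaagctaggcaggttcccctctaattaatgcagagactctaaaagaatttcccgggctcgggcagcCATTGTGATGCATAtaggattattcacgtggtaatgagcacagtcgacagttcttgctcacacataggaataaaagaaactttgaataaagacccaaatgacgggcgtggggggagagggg
Sox2 +18655 (chr3:34567482-34567681): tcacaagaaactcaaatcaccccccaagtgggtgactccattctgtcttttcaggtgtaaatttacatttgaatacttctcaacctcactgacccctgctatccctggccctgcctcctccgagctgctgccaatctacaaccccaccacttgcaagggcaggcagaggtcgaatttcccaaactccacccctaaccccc

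Read on its own strand, the composite match was CTTTGTTATGCATC at chr17:35640995-35641008 (minus strand, 2 mismatches) for the *Pou5f1* region and CATTGTGATGCATA at chr3:34552971-34552984 (plus strand, 1 mismatch) for the region downstream of *Sox2*. The region far upstream of *Sox2* held CACTGTTATGCAGA at chr3:34523066-34523079 (plus strand, 2 mismatches). Of the 26 windows, 4 held an octamer or composite match, which is 15.4% (4.36 to 34.9) against 23.1% of all 23767 regions (5496) in windows of the same length. All 3 composite matches stood in regions bound by OCT4 in every fraction. Among regions of these genes with OCT4 in high cells, 3 of 8 kept in negative cells and 0 of 7 not kept held one. In the series, a composite match stood in 27.4% (1874) of the 6837 such regions kept and in 19.3% (1084) of the 5612 not kept. With the octamer included, the series shares were 34.5% (2361 of 6837) and 24.7% (1387 of 5612). The composite and the octamer can overlap, and a match describes the letters and not occupancy.

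At *Pou5f1*, 2 of 3 OCT4 regions of high cells (9.43 to 99.2) were also in the negative list, beside 54.9% in the series. Of the NANOG regions of high cells, 0 of 2 were, beside 2.51%. All 5 regions lay upstream of the transcription start, between genes, and none lay downstream, where *Tcf19* and *Cchcr1* are the other annotated genes within 20 kb. The region with the composite match (chr17:35640952-35641091, 140 bp, centred 1960 bp upstream) was in the OCT4 lists of high, medium and negative cells and in the NANOG lists of high and medium cells. The widest region (chr17:35641692-35642431, 740 bp, centred 920 bp upstream) had the same presence, OCT4 in 3 fractions and NANOG in high and medium. It is the wider of the pair by far and held no octamer or composite match anywhere along its length. Between them, a region of 60 bp (chr17:35641592-35641651), 40 bp from the widest one, was in the OCT4 lists of high and medium cells alone.

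OCT4 also appeared at *Pou5f1* in medium and negative cells where the high list had none. The region at chr17:35639252-35639431 (180 bp, centred 3640 bp upstream) and that at chr17:35623892-35623951 (60 bp, centred 19060 bp upstream) were in the OCT4 lists of medium and negative cells and in no NANOG list. The latter lies closer to *H2-Q10*, a class I histocompatibility gene, than to *Pou5f1*. The OCT4 regions of *Pou5f1* thus numbered 3 in high, 5 in medium and 4 in negative cells, covering 940, 1180 and 1120 bp, and those of NANOG numbered 2, 2 and 0. Of the 4 in negative cells, 2 were absent from the high list (50%, 6.76 to 93.2), beside 34.1% in the series. Just beyond the limit, at 20030 bp from the gene, a region of 160 bp (chr17:35622792-35622951) carried OCT4 in every fraction and no NANOG.

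**Figure D1:**
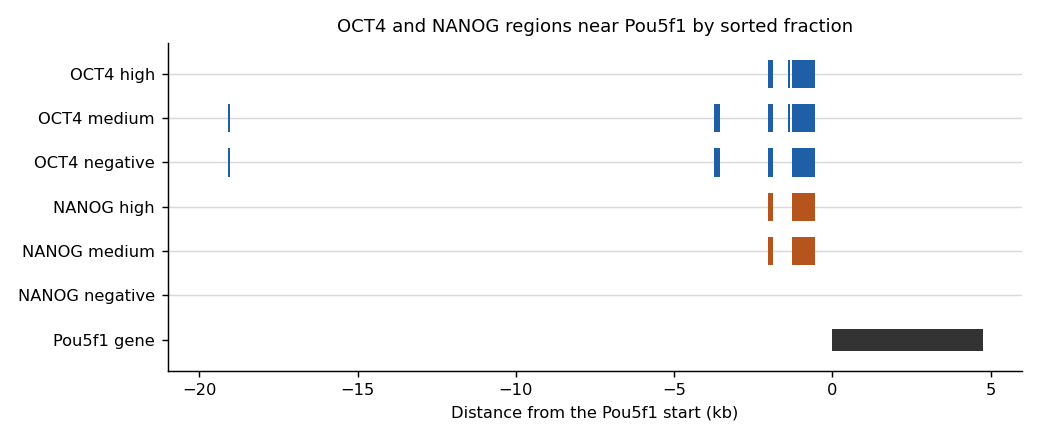
Regions within 20 kb of *Pou5f1* in each of the 6 lists (rows; OCT4 blue, NANOG orange), drawn to scale by distance from the transcription start in kb, with the gene in black. The regions centred 1960 and 920 bp upstream are in the OCT4 row of every fraction, the NANOG row of negative cells is empty, and the 2 outer OCT4 regions are absent from high cells.

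Within 20 kb of *Sox2*, every OCT4 region of high cells was also present in medium and negative cells. There were 5 such regions, centred 3625 bp upstream and 4065, 14435, 18165 and 18655 bp downstream of the start. The upstream one (chr3:34545172-34545431, 260 bp), in the stretch where SRR1 is known, and the one at 18655 bp (chr3:34567352-34567811, 460 bp) also carried NANOG in high and medium cells. The region at 4065 bp (chr3:34552952-34553031, 80 bp), where SRR2 is known and the composite match stands, carried NANOG in high cells and was in neither of the other NANOG lists. The regions at 14435 bp (chr3:34563332-34563391, 60 bp) and 18165 bp (chr3:34566992-34567191, 200 bp) carried OCT4 in 3 fractions and no NANOG. NANOG was thus listed at 3 of these 5 regions in high cells, at 2 in medium cells and at none in negative cells.

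The remaining 3 regions close to *Sox2* were each absent from the high lists. A downstream one of 60 bp carried OCT4 in medium and negative cells and no NANOG, as did the outer *Pou5f1* regions. A region of 60 bp at chr3:34564292-34564351, in an exon of *Sox2ot*, was in the NANOG list of medium cells alone. A region of 40 bp at chr3:34549332-34549371, across the start of the *Sox2* coding sequence and its 5′ UTR, was in the NANOG list of negative cells alone. It was 1 of 18 regions of that list found in no other. Of the 18, 6 (33.3%) had this smallest width of 40 bp and 2 (11.1%) lay within 1 kb of a protein-coding start. Over all 286 regions of that list, the numbers were 63 (22.0%) and 15 (5.24%). Apart from this region, all regions within 20 kb of *Sox2* lie outside the *Sox2* transcript and inside *Sox2ot*, a long noncoding RNA gene that contains *Sox2*, and in its introns except for that exonic one.

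Taking both genes within 20 kb, OCT4 in high cells was kept in negative cells at 7 of 8 regions (87.5%, 47.3 to 99.7), against 54.9% of the 12449 OCT4 regions of high cells in the series. *Sox2* kept 5 of 5 (47.8 to 100) and *Pou5f1* 2 of 3 (9.43 to 99.2). The region not kept is the one of 60 bp beside the widest *Pou5f1* region. All 8 were kept in medium cells (63.1 to 100), against 78.7% in the series. NANOG was kept in medium cells at 4 of 5 regions (80%, 28.4 to 99.5), against 47.7%. In negative cells it was kept at 0 of 5 (0 to 52.2), against 2.51% of the 9425 NANOG regions of high cells. With so few regions, each of these intervals, for OCT4 and for NANOG, includes the share of the series. Of the 10 OCT4 regions of negative cells at both genes, 3 were absent from the high list (30%, 6.67 to 65.2), beside 34.1% of the 10369 in the series.

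Far downstream of *Sox2*, the OCT4 regions of high cells were absent from the negative list. There were 5 of them between 85085 and 111415 bp from the start, all in intergenic sequence with *Sox2* as the closest protein-coding gene, and all carried NANOG in high cells. Every one was kept by OCT4 in medium cells, and 0 of 5 (0 to 52.2) in negative cells, beside 78.7% and 54.9% in the series. All 5 were 240 bp wide or more, and series regions of that width were kept at 88.2% and 51.0%. The interval for negative cells includes this last share. The densest stretch was chr3:34655432-34660651, 5220 bp long and 104048 bp from the gene, which lies where the distal control region is known. It held 4 NANOG regions of high cells, all of which were kept in medium and none in negative cells. In the series, 47.7% and 2.51% of NANOG regions of high cells were kept, and 54.9% and 1.17% of those 240 bp wide or more. Runs of this density, 4 or more NANOG regions of high cells within such a span, occurred 7 times in the series, this one included.

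The 4 regions of that stretch with NANOG were among the widest of the 26. The regions at chr3:34655432-34655871 (440 bp), chr3:34656772-34657231 (460 bp) and chr3:34660032-34660651 (620 bp) were bound by both factors in high and medium cells. The region between them at chr3:34659232-34659691 (460 bp) carried NANOG in high and medium cells and OCT4 in medium cells alone. Smaller regions had the opposite presence. A region of 40 bp inside the stretch at chr3:34659132-34659171, 60 bp from its neighbour, and one of 100 bp beyond it at chr3:34663672-34663771 were in the OCT4 lists of medium and negative cells and in no NANOG list. They were the only downstream distal regions with OCT4 in negative cells.

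Closer to the gene on the same side, the region at chr3:34633892-34634131 (240 bp) carried both factors in high and medium cells, and that at chr3:34644212-34644451 (240 bp) carried OCT4 in high and medium and NANOG in high cells. A region of 40 bp at chr3:34627432-34627471 had NANOG in high cells, and a region of 60 bp at chr3:34644752-34644811 had OCT4 in medium cells, each in that list alone. The 3 upstream distal regions lie in introns of *Sox2ot* and differed from each other. The nearest (chr3:34523032-34523091, 60 bp, centred 25865 bp upstream), which holds a composite match, carried OCT4 in every fraction. The region at chr3:34449672-34449831 (160 bp) carried OCT4 in high and medium cells, and the one at chr3:34458212-34458271 (60 bp) carried NANOG in high and medium cells. Beyond 120 kb, the next regions lay 134888 and 148568 bp from the gene, with OCT4 in medium and negative and in high and medium cells.

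**Figure D2:**
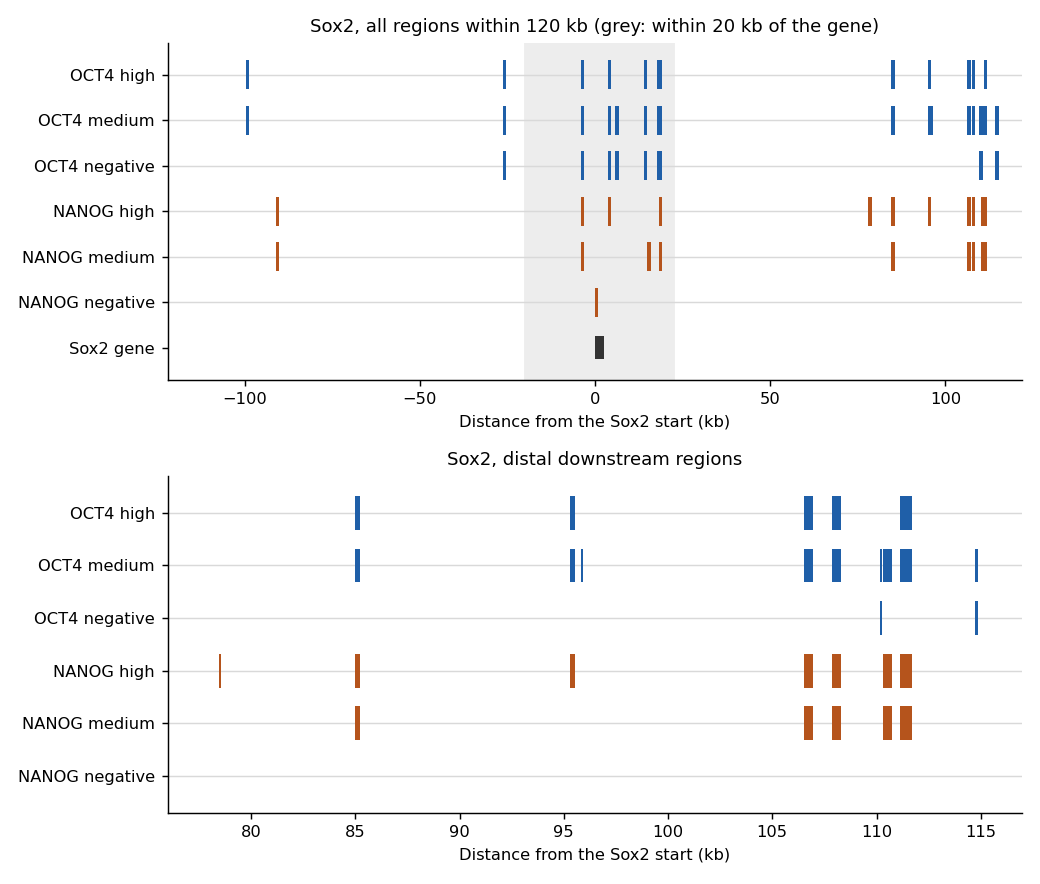
Regions at *Sox2* in each of the 6 lists by distance from the transcription start in kb, over 120 kb on either side (top, regions drawn at least 1 kb wide, grey band within 20 kb of the gene) and over the distal downstream regions (bottom, drawn at least 100 bp wide). In negative cells the OCT4 row keeps the regions in the grey band, while of the distal downstream regions it holds 2 that were absent from high cells.

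Over all 13 distal *Sox2* regions, the number with OCT4 was 7 in the high list, 11 in medium and 3 in negative, and they covered 2220, 2880 and 200 bp. For the 8 regions within 20 kb, the number was 5, 6 and 6, and they covered 1060, 1120 and 1120 bp. OCT4 in high cells was kept in negative cells at 1 of 7 distal regions (14.3%, 0.361 to 57.9), the composite-bearing one upstream. The contrast was the same among regions that carried both factors in high cells. Of these, 5 of 5 within 20 kb of *Pou5f1* or *Sox2* kept OCT4 in negative cells (47.8 to 100), and 0 of 5 distal ones did (0 to 52.2), while in the series 44.2% of 3675 such regions kept it. Each distal one was 240 bp wide or more, and among the regions of the series with both factors in high cells and at least this width, 42.9% (524 of 1222) kept OCT4 in negative cells. NANOG was kept in medium cells at 4 of 5 near and 6 of 8 distal regions and in negative cells at none of the 13.

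**Figure D3:**
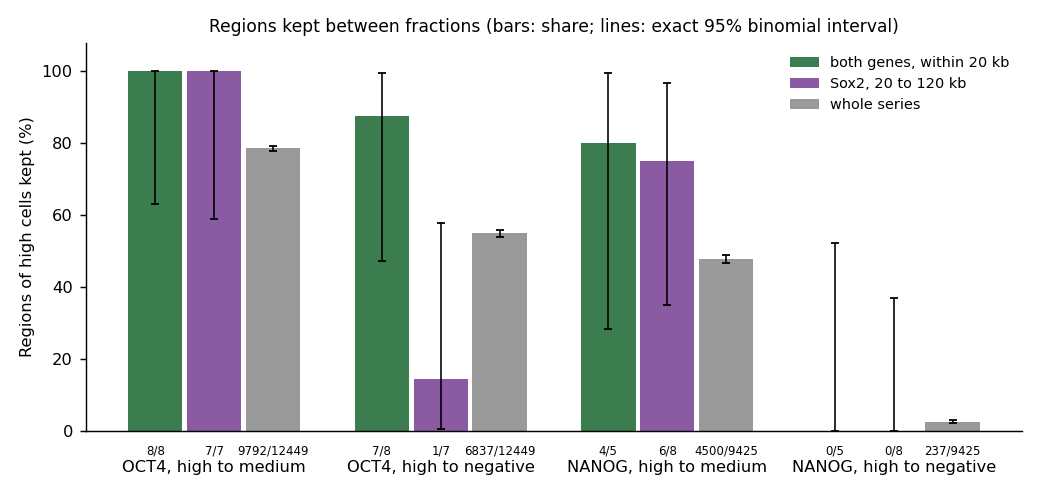
Share of the regions of Esrrb-GFP high cells, in percent, that were also in the medium or negative list of the same factor, for both genes within 20 kb (green), for *Sox2* from 20 to 120 kb (purple) and for the whole series (grey), with regions kept of regions in high cells under each bar and exact 95% binomial intervals as lines. From high to negative, OCT4 was kept at 7 of 8 near and 1 of 7 distal regions.

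Near regions that all kept OCT4, with 50% or fewer of the distal ones kept, were not particular to *Sox2*. Of 329 protein-coding gene entries with 3 or more OCT4 regions of high cells within 20 kb and 3 or more from 20 to 120 kb, 26 (7.90%) kept all near regions and no more than 50% of the distal ones, *Sox2* among them. They carry 25 names, *Hoxa3* having 2 entries, and 7 of the entries kept exactly 50% of the distal regions. The names need not be separate loci. *Hoxc9*, *Hoxc10* and *Hoxc11* had equal counts (3 of 3 near, 2 of 5 distal), and sharing of regions between neighbouring genes was not tested. This criterion was written with the values of *Sox2* in view and is a description. Of 230 protein-coding genes with 5 or more OCT4 regions of high cells within 20 kb, 8 (3.48%) kept every one in negative cells. Beside *Sox2*, these were *Ctnna3*, *Dab1*, *Fam19a1*, *Mtus2*, *Nav2*, *Sorcs1* and *Tex14*. The other 7 are long genes, from 150759 bp (*Tex14*) to 1573570 bp (*Ctnna3*), while *Sox2* spans 2457 bp, and a long gene body takes in more regions.

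The sequences of the 4 regions with NANOG in the dense distal stretch are shown because each held a match to the ESRRB response element, TCAAGGTCA, with up to 1 mismatch. Each is 100 bases around the match on the plus strand of mm9, and capitals mark the matches on either strand.
Sox2 +106725 (chr3:34655463-34655562): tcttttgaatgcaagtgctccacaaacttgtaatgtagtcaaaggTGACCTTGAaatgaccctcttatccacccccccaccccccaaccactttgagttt
Sox2 +108075 (chr3:34656837-34656936): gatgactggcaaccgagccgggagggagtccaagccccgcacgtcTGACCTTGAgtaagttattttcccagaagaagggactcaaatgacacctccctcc
Sox2 +110535 (chr3:34659451-34659550): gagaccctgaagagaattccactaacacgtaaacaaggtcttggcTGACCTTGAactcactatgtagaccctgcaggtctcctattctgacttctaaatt
Sox2 +111415 (chr3:34660175-34660274): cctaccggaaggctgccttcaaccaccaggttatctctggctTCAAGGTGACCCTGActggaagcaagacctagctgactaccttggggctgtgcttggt
In the first 3 the element read TCAAGGTCA without mismatch on the minus strand, and in the last there were overlapping matches on both strands with 1 mismatch each. Along their whole length, 4 of these 4 regions held an ESRRB match, against 34.0% of the 324 regions of the series that were 440 bp or wider. None of the 4 held an octamer or composite match, against 36.4% of those 324. That lack was not particular to the stretch. Of all 6 regions of these genes at that width, 0 held an octamer or composite match and 4 an ESRRB match (66.7%). The wide regions near the genes, *Pou5f1* -920 and *Sox2* +18655, held neither and had OCT4 in every fraction. The scan of whole regions and the limit of 440 bp were chosen after the data had been seen. Repeats are not marked in the sequence used, so whether a match lies in a repeat was not tested.

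The smaller regions with OCT4 in medium and negative cells, inside and beyond the stretch, also had an ESRRB match within 100 bp of their centres. The *Sox2* +110225 match ran past the end of its region, and the *Sox2* +114795 match lay inside. Each had 1 mismatch and is marked in capitals here.
Sox2 +110225 (chr3:34659052-34659251): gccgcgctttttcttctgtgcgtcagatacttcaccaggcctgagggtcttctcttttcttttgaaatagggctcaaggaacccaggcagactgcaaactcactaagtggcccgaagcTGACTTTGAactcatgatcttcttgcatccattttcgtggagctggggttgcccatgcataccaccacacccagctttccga
Sox2 +114795 (chr3:34663622-34663821): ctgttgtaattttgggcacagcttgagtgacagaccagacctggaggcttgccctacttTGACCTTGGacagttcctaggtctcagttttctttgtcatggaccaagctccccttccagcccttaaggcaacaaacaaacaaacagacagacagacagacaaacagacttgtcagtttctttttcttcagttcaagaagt
In windows of that length, 3 of the 26 regions held an ESRRB match (11.5%, 2.45 to 30.2), these and *Sox2* +110535. The share over all regions was close to this, at 11.2% (2663). All 3 were among the 10 distal regions downstream of *Sox2* (30%, 6.67 to 65.2). Of the 13 regions within 20 kb of either gene, 0 held one (0 to 24.7). Each of these intervals includes the share of the series. In the series, the match stood in 7.84% of the 6837 OCT4 regions kept in negative cells and in 14.2% of the 5612 not kept. At these genes, 0 of 8 such regions kept and 0 of 7 not kept held one in these windows.

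Matches to the KLF element (GGGCGTGG or GGGTGTGG, either strand, no mismatch), which is bound by Kruppel-like factors such as KLF4, were found within 100 bp of the centre in 4 of the 26 regions (15.4%, 4.36 to 34.9), against 4.17% of the series. Within 20 kb of the genes there were 3 of 13 (23.1%, 5.04 to 53.8), at the regions 1960 bp upstream of *Pou5f1* and 4065 and 14435 bp downstream of *Sox2*, all with OCT4 in every fraction. The other stood in the window of *Sox2* +110225. All 4 lay in the window but outside the region it was drawn around, the last of them inside the neighbouring *Sox2* +110535 region. Of the regions with OCT4 in high cells, 3 of 8 kept in negative cells and 0 of 7 not kept held one, beside 3.50% and 4.72% in the series.

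Both loci had more regions than most protein-coding genes. *Sox2* had 8 regions in any list within 20 kb, a number reached by 251 of 22380 protein-coding genes (1.12%), and *Pou5f1* had 5, reached by 884 (3.95%), while 53.6% of genes had none. These shares moved with the way regions were counted, for *Sox2* from 0.192% by distance to the transcription start to 4.62% within 10 kb, and for *Pou5f1* from 1.13% by distance to the start to 10.5% with regions within 500 bp joined. In the OCT4 list of negative cells *Sox2* had 6 regions, reached by 81 genes (0.362%), and *Pou5f1* 4, reached by 335 (1.50%). In the NANOG list of medium cells *Sox2* had 3, reached by 185 genes (0.827%). By the sum of absolute differences over the counts in the 6 lists, the genes most like *Pou5f1* were *Foxp4*, a forkhead factor gene, and *Igfbp2*, which encodes an insulin-like growth factor binding protein, each at a distance of 1. Those most like *Sox2* were *Nav2* (distance 2) and *Ctnna3* (distance 3), which span 363899 and 1573570 bp. At the next distance 11 genes tied for *Pou5f1* and 12 for *Sox2*.

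**Figure D4:**
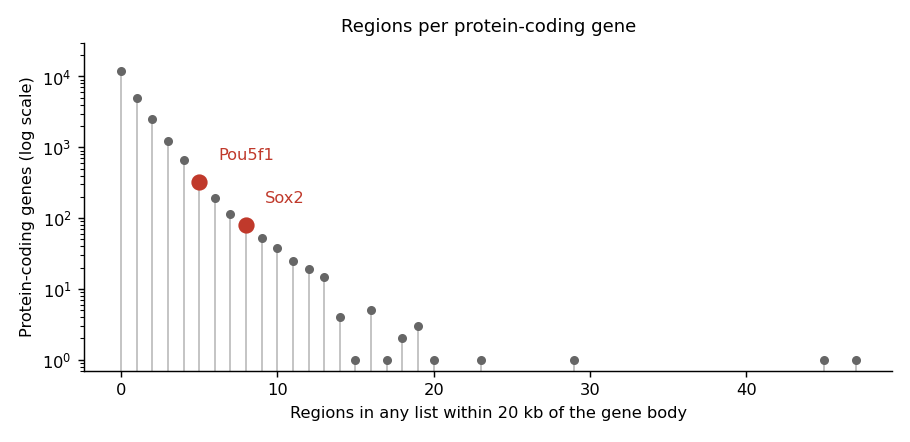
Number of protein-coding genes (log scale) by the number of regions in any of the 6 lists within 20 kb of the gene body, with the points that include *Pou5f1* (5 regions) and *Sox2* (8 regions) in red. Most genes had no region or 1 region.

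Other genes picked as known OCT4 targets shared OCT4 binding in high cells but had fewer regions with OCT4 in every fraction than *Sox2*. Whether each holds a composite Oct-Sox element was not tested. Of 10 such target genes (*Fgf4*, a growth factor gene, *Utf1*, *Fbxo15*, *Nanog*, *Lefty1*, *Zfp42*, *Dppa4*, *Spp1*, *Tdgf1* and *Sall4*), 10 had OCT4 and 10 had NANOG within 20 kb in high cells, against 31.5% and 23.3% of all protein-coding genes. A region with OCT4 in all 3 fractions was found at 6 of them, against 18.3%, and NANOG in negative cells at 1, *Nanog* itself, against 0.961%. *Lefty1*, which encodes an inhibitor of Nodal signalling, and *Tdgf1*, which encodes its coreceptor, had 2 regions with OCT4 in 3 fractions, as did *Pou5f1*, while *Sox2* had 5. *Zfp42*, a marker of naive ESCs, had 2 OCT4 regions in high cells and 0 in negative cells.

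A smaller share of the other POU and SOX family genes had OCT4 regions than of these target genes, which were picked as known targets. Of 33 listed, 31 were found, and 14 of them had OCT4 in high cells (45.2%, against 31.5% of all genes) and 6 a region with OCT4 in 3 fractions (19.4%, against 18.3%). NANOG was found at 12 in high cells (38.7%) and at 7 in medium cells (22.6%, against 14.6%). *Pou2f3* was the family member with the most regions bound by OCT4 in 3 fractions, 2. *Sox5*, a long gene, had 7 OCT4 regions in high cells and 2 in negative cells, none of them shared by all 3 fractions. No gene of either list had 3 or more regions with OCT4 in every fraction.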

How the data were processed

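OCT4 and NANOG ChIP-Seq lists of 6 libraries were used. Groups follow the labels for antibody and fraction. The authors aligned the reads in GeneProf (the submitters' processing notes name Bowtie and mm9) and used SISSRs to call peaks, which were then joined across libraries. They left out a region in fractions with under 50% of the strongest depth-corrected signal. The deposited lists hold chromosome, start and end only, with widths in steps of 20 bp from 40 to 1180 bp. Read depth is not part of them. Starts were taken as counted from 0 and are given counted from 1.

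The 51722 entries are 23767 distinct regions. Distances are to the gene body in GENCODE for mm9 (22380 protein-coding genes), and positions from the start are those of region centres. Regions were counted as kept where the same interval is in both lists. Octamer, composite, ESRRB and KLF matches were searched on both strands within 100 bp of the centre. All regions within 20 kb of *Pou5f1* and *Sox2*, and within 120 kb of *Sox2*, are named, except 1 whose position and sequence are not reported here, with up to 5 genes of the most similar counts, tied genes being given as a number. List genes with at least 3 regions bound by OCT4 in 3 fractions were to be named; there were none, and those named were chosen after their values were seen. The members and lists were chosen with earlier results of these data known. No paired analysis was possible because there is a lone library per factor and fraction.

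Python 3.11.15, numpy 2.4.6, scipy 1.17.1, pysam 0.24.0, samtools 1.23.1 and matplotlib 3.10.9 were used, and the functions were tested on simulated data with known answers. Microarray and PCR data were not analysed here.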

Additional observations from a re-analysis of the deposited data

How the results depend on the processing

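Of 48 values under alternative settings, 20 moved by more than 1.5 times (counts) or beyond the interval (shares), and 28 did not. Counts of regions moved most with the limits on distance and width. *Pou5f1* had 8 regions within 50 kb, 3 when regions within 500 bp were joined and 3 at the median width of 80 bp or more, and *Sox2* had 4 within 10 kb, 4 near and 8 distal at that width. OCT4 kept from high to negative cells near both genes became 100% when regions were joined and 100% at the median width, and the distal share became 0% at the median width. Joining gave a distal share of 28.6%, since the 40 bp region with OCT4 in negative cells is then joined to the pair of wide regions next to it. The share of genes with as many regions as *Pou5f1* was 4.62% at 10 kb, 2.75% at 50 kb, 1.13% by distance to the transcription start and 10.5% with joined regions. For *Sox2* it was 4.62%, 1.91% and 0.192% at 10 kb, 50 kb and by distance to the start. Windows with an octamer or composite match fell to 2 with 1 mismatch. Those with an ESRRB match were 9 at 250 bp either side, 1 without mismatch and 6 over whole regions, a setting added after the data had been seen. Series shares at these altered settings are not given here. These counts of matches can therefore not be set against the series shares of the main setting. With joined regions and at the median width, OCT4 was still kept more often near the genes than at the distal *Sox2* regions. No replicate could be left out, as each condition has 1 library, and depth is unknown.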
